A study of Mus musculus with 14 samples.

Results

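The phospholipid scramblase genes Plscr1, Plscr2, Plscr3 and Plscr4 and the related gene 1700057G04Rik were followed in the ileum of mice with and without NCoR1 in the gut epithelium. These 5 genes, of 54532 in the count table, were taken by name, and they were chosen by the family they belong to and by their levels in WT and IKO libraries of this same series. Their difference between the genotypes is therefore given below as a description, and the count of them that passed in the fit of all genes supports nothing. All 5 passed the filter on low counts, which left 13846 genes, and 1700057G04Rik did so only through its IKO levels.

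The WT mice carried NCoR1 flox/flox alleles and no Cre, and the IKO mice carried the same floxed alleles together with Cre recombinase under the villin promoter, which is active in intestinal epithelial cells. Both groups were young adult males that received a high-fat diet (HFD) for 15 weeks, and total RNA from the scraped ileal mucosa of 7 mice per genotype was sequenced, with 1 library per mouse. The scraped mucosa also holds immune, stromal and muscle cells, in which the villin promoter is silent and Ncor1 stays intact, although the labels name the material epithelial cells. Bulk RNA cannot tell fewer cells of a type apart from less RNA per cell.

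Phospholipid scramblases are membrane proteins that, when calcium rises, move phospholipids in both directions between the leaflets of a membrane without using ATP. Flippases and floppases, in contrast, spend ATP to move lipids in one direction, and flippases keep phosphatidylserine on the inner side. Plscr1 is also known as an interferon-stimulated gene with antiviral activity, and Plscr3 is known as the family member of mitochondria, where cardiolipin is its lipid.

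Of the 5 genes, 4 lay in 1 cluster on the + strand of mouse chromosome 9 that spanned 243 kb (mm10 coordinates, as in the count table). Plscr1 (ENSMUSG00000032369) ran from 92249750 to 92272278 and Plscr2 (ENSMUSG00000032372) followed it after 3.32 kb, from 92275602 to 92297752. After 11.6 kb came 1700057G04Rik (ENSMUSG00000074139), from 92309377 to 92357876. Plscr4 (ENSMUSG00000032377) followed after 99.5 kb, from 92457373 to 92492456. Plscr3 (ENSMUSG00000019461) lay apart on chromosome 11, from 69846376 to 69852058 on the + strand. All 5 are annotated as protein-coding.

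The coding sequences show how close the genes are to each other, and how far reads could be shared between them. The longest complete coding sequence in the GENCODE M21 transcripts (GRCm38) had 984 bases for Plscr1, 921 for Plscr2, 978 for Plscr4, 888 for Plscr3 and 696 for 1700057G04Rik, the shortest of the 5. Over aligned coding bases, Plscr1 and Plscr2 were identical at 82.7%, and 1700057G04Rik was identical to Plscr1 at 74.0%, to Plscr2 at 70.5%, to Plscr4 at 58.7% and to Plscr3 at 56.7%. The name 1700057G04Rik thus stands for a gene whose coding sequence is nearer to Plscr1 and Plscr2 than Plscr4 and Plscr3 are, since Plscr4 was identical to Plscr1 at 554 of 924 bases and Plscr3 at 53.8%. Plscr1 and Plscr2 transcripts shared 16 stretches of 31 bases, and their longest common run had 37 bases. Every other pair shared 0 such stretches. The stretch of 60 aligned coding bases that was most alike in all 5 genes is printed from the GENCODE transcripts with its GRCm38 position, and capitals mark the 33 bases that all 5 genes share:
Plscr1, chr9:92269916-92269975, + strand: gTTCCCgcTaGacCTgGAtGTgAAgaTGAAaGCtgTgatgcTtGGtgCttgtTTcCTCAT
Plscr2, chr9:92295616-92295675, + strand: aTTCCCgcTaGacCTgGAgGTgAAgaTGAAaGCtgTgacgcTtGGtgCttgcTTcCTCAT
1700057G04Rik, chr9:92354646-92354705, + strand: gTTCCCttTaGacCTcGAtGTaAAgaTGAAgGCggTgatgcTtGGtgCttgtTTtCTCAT
Plscr4, chr9:92490050-92490109, + strand: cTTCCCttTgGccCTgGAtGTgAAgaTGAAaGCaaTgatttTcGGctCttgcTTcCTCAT
Plscr3, chr11:69850113-69850172, + strand: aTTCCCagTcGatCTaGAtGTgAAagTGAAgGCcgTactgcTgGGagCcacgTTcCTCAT

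RefSeq promoters (GRCm38.p6, 250 bases before to 50 bases after the annotated start) were found for 4 of the 5 genes. Plscr2 had none in the set used, so no motif was searched for it. The promoters of the other 3 cluster genes are printed. The reason is that Plscr1 and 1700057G04Rik were much higher in IKO mice and Plscr4, in the same cluster, was not. Plscr4 had a log2 fold change of 0.24, or 0.84 without WT 4. Capitals mark the matches to the motifs searched:
Plscr1, chr9:92249944-92250243, + strand: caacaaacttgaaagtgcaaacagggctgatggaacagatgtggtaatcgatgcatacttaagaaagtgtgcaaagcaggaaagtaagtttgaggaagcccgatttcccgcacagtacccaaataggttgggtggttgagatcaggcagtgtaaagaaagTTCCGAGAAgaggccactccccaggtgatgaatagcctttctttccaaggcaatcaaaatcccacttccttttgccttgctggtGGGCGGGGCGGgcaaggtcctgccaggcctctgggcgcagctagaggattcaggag
1700057G04Rik, chr9:92309127-92309426, + strand: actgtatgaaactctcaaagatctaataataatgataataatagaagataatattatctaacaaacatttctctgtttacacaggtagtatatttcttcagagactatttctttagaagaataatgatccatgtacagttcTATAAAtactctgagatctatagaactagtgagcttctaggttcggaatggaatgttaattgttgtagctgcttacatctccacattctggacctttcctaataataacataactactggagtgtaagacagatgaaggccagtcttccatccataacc
Plscr4, chr9:92457128-92457427, + strand: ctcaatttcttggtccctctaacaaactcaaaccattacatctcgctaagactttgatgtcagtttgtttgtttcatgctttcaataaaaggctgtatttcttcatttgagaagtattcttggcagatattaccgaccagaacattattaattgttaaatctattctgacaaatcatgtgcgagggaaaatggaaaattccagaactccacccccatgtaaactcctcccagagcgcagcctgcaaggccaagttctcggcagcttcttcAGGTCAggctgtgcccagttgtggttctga

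The motifs were searched on both strands of these windows. They were the interferon-stimulated response element GAAANNGAAA, the STAT site TTCNNNGAA, the nuclear receptor half-site AGGTCA, a direct repeat of 2 relaxed half-sites AGGNCANAGGNCA, the GC box GGGCGG and the TATA box TATAAA. The window of Plscr1 held 1 match to the STAT site at -90 from the start (8.30% of all 32851 promoters hold one) and 2 overlapping GC boxes at -6 and -1 (35.7% of all promoters). That of 1700057G04Rik held 1 TATA box sequence, at -109 (13.6% of all promoters), and that of Plscr4 held 1 half-site, at 20 bases after the start (16.3% of all promoters). The response element and the direct repeat, held by 3.44% and 0.381% of all promoters, had 0 matches in the windows of these genes. The Plscr1 window lay wholly inside the gene span used for the counts, which begins at 92249750. Sequence before that earlier start was not searched. In base composition the windows were unlike: G and C made up 50.7% of the Plscr1 window, 42.0% of the Plscr4 window and 32.7% of the 1700057G04Rik window, and 2.24% of all promoters had a lower share than the last. The Plscr3 windows, from 3 annotated starts, had 60.7% to 70.3% and held 2 or 3 GC boxes each. A match is a stretch of letters, and binding was not measured.

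The libraries held 14749669 to 21557468 counts. Ncor1 (chromosome 11, 62316426 to 62458541), the floxed gene, lay between 106 and 195 CPM in WT and between 31.7 and 64.0 CPM in IKO libraries, where CPM are counts scaled to a library of 1e6 with the TMM factors of edgeR. Mitochondrial transcripts made up 50.3% of the library IKO 4 and 23.9% of WT 3, against 3.49% to 10.3% of the other 12, and smooth muscle markers summed to 11200 CPM in WT 4, against at most 826 CPM elsewhere. TMM factors ran from 0.931 to 1.53 in WT and from 0.579 to 0.967 in IKO libraries. Epithelial markers (Vil1, Epcam, Cdh1, Krt8, Krt19 and Krt20) were high in every library and summed to 11400 to 18200 CPM in WT and 16100 to 21400 CPM in IKO libraries.

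Plscr1, the interferon-stimulated scramblase, carried most of the family's signal and was 2.86-fold higher in IKO than in WT mice. In WT 1 to WT 7 its level was 144, 84.8, 99.2, 80.4, 181, 89.4 and 101 CPM. In IKO 1 to IKO 7 it was 337, 223, 305, 456, 312, 315 and 289 CPM. The lowest IKO library, IKO 2, lay above the highest WT library, WT 5, so the groups did not overlap. The means were 112 ± 37.4 CPM (SD, n = 7) and 320 ± 70.1 CPM (SD, n = 7), and the fitted log2 fold change was 1.52 with a standard error of 0.22. Scaled by the total count alone, without TMM factors, the WT libraries ran from 78.9 to 194 CPM and the IKO libraries from 210 to 313 CPM, and the groups still did not overlap. The log2 fold change was then 1.07, while the median of all genes moved from -0.09 to -0.49.

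1700057G04Rik went from a trace to a clear level. Its counts in WT 1 to WT 7 were 12, 4, 0, 17, 0, 0 and 11. In IKO 1 to IKO 7 they were 82, 249, 158, 212, 78, 266 and 27. In CPM the WT libraries lay between 0 and 0.807 and the IKO libraries between 1.63 and 23.2, again without overlap, though the lowest IKO library, IKO 7, stood 14.2 times below the highest, IKO 4. Without the TMM factors the highest was IKO 6 with 14.7 CPM, and IKO 4 had 13.4 CPM. The count of 0 in WT 3, WT 5 and WT 6 allows at most 3 counts, or 0.204, 0.157 and 0.146 CPM, which covers counting error only. The fitted log2 fold change was 5.12 with a standard error of 0.83, a 34.9-fold difference, with 0 to 17 counts on the WT side. The mean was 0.278 ± 0.308 CPM (SD, n = 7) in WT and 10.3 ± 7.71 CPM (SD, n = 7) in IKO mice.

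**Figure D1:**
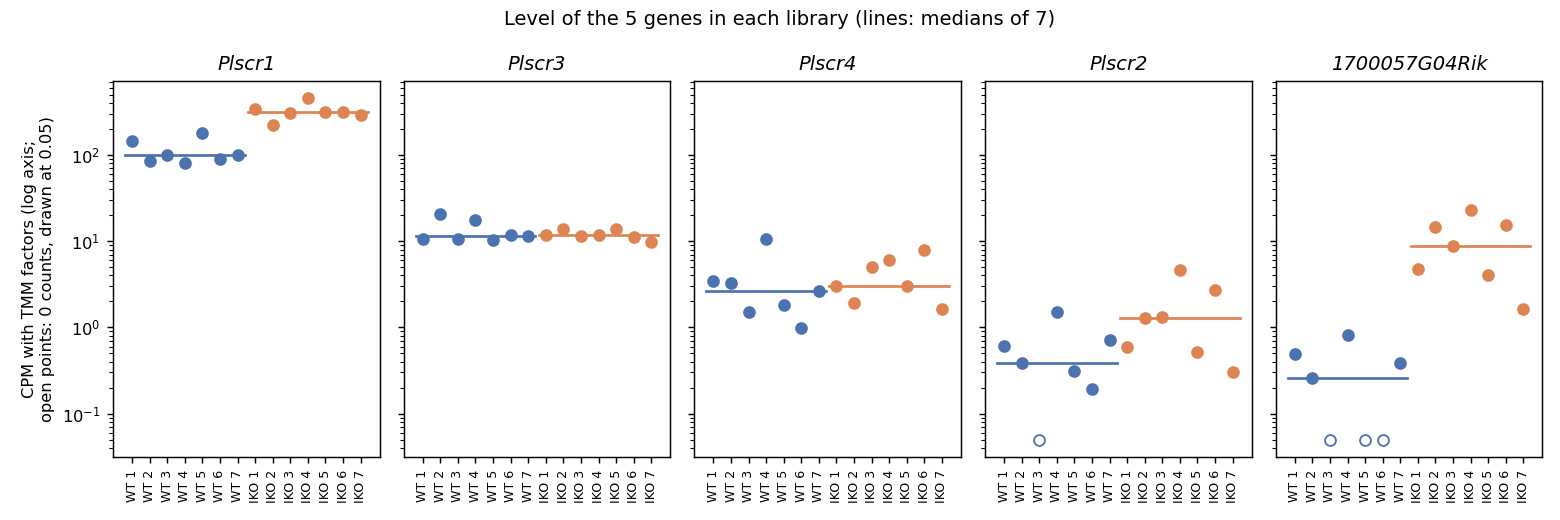
CPM (counts scaled with TMM factors, log axis) of Plscr1, Plscr3, Plscr4, Plscr2 and 1700057G04Rik in each of 7 WT (blue) and 7 IKO (orange) libraries. Lines are medians of 7, and open points are libraries with 0 counts. The IKO points of Plscr1 and 1700057G04Rik all lie above the WT points, while those of the other genes overlap with WT.

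Plscr2, the close relative of Plscr1 beside it, was barely detected. Its counts were 15, 6, 0, 32, 6, 4 and 20 in WT 1 to WT 7. They were 10, 22, 24, 42, 10, 47 and 5 in IKO 1 to IKO 7. The WT libraries reached from 0 to 1.52 CPM and the IKO libraries from 0.301 to 4.59 CPM, so the groups overlapped, and 2 of 7 IKO libraries lay above every WT library. Its log2 fold change of 1.53 had a standard error of 0.69, far above that of Plscr1 at nearly the same fold. Plscr1 gave 16170 counts in WT and 35558 in IKO libraries where Plscr2 gave 83 and 160, and how reads that could belong to either gene were assigned is not given in the sources used here, so the low Plscr2 counts are uncertain.

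Plscr4 lay between 0.971 and 10.6 CPM in WT (median 2.62) and between 1.63 and 7.98 CPM in IKO libraries (median 3.04). The groups overlapped, and the log2 fold change was 0.24 (standard error 0.50). Its highest library was WT 4, the one with 11200 CPM of smooth muscle markers, where stroma and endothelium markers also summed to 375 CPM against at most 91.2 CPM elsewhere. The part of these cells in the Plscr4 level was not tested. Without WT 4, the log2 fold change of Plscr4 was 0.84, and without WT 3, WT 4 and IKO 4 it was 0.63.

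Plscr3, the mitochondrial scramblase, lay between 10.4 and 20.8 CPM in WT (median 11.6) and between 9.82 and 13.8 CPM in IKO libraries (median 11.9). The IKO range lay within or just below the WT range, and the log2 fold change was -0.16 (standard error 0.18). Tnk1, a tyrosine kinase gene on the opposite strand, overlaps the last part of Plscr3 from 69851005 to 69852058, and as the strand setting of the counting is not given in the sources used here, reads of both genes may be mixed there. Plscr5, the remaining family member on chromosome 9, was not among the 5 genes and gave 15 counts in 3 libraries, too few to be tested.

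In the edgeR quasi-likelihood test over all genes, 2 of the 5 genes, Plscr1 and 1700057G04Rik, passed a Benjamini-Hochberg adjusted p under 0.05, both higher in IKO mice. The same threshold was passed by 8.67% of all genes tested, with 4.38% higher and 4.28% lower. The same 2 genes had no overlap between the genotypes with IKO higher, as did 1.83% of all genes tested. These shares are given as background and nothing is read from the count, because the 5 genes were chosen by this contrast. Without TMM factors, 195 genes were higher and 3185 lower, in place of 607 and 593.

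Levels of different genes can be compared only per length, and for this the deposited FPKM were used. In WT mice the order was Plscr1 with a median of 38.8 FPKM, Plscr3 with 3.56, Plscr4 with 0.706, 1700057G04Rik with 0.127 and Plscr2 with 0.119. Plscr1 was above Plscr3 and Plscr3 above Plscr4 in 7 of 7 WT libraries, whereas the last 2 genes could not be ordered: Plscr2 was higher in 4 libraries and lower in 2, and both were at 0 in WT 3. In IKO mice Plscr1 had a median of 127 FPKM and 1700057G04Rik came next with 4.42, ahead of Plscr3 with 3.75, Plscr4 with 0.847 and Plscr2 with 0.408. The places of 1700057G04Rik and Plscr3 did not differ beyond their spread, since 1700057G04Rik ran from 0.834 to 11.9 FPKM and was the higher in 4 of 7 IKO libraries. It was above Plscr4 and above Plscr2 in 7 of 7 IKO libraries, and below Plscr4 in 7 of 7 WT libraries.

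**Figure D2:**
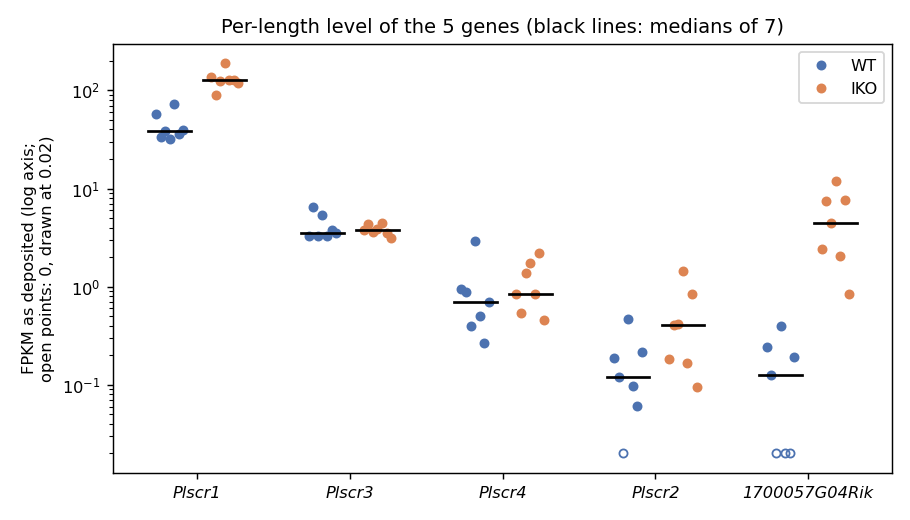
FPKM as deposited (log axis) of the 5 genes in 7 WT (blue) and 7 IKO (orange) libraries. Black lines are medians of 7, and open points are libraries at 0. Plscr1 lies above all the others in both genotypes, and 1700057G04Rik moves from the level of Plscr2 in WT (median 0.127) to that of Plscr3 in IKO mice (median 4.42).

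Of the FPKM summed over the 5 genes, Plscr1 took a median of 89.8% in WT (77.6% to 95.0%) and 92.6% in IKO libraries (87.7% to 96.3%). The share of 1700057G04Rik had a median of 0.309% in WT and 3.32% in IKO libraries, and that of Plscr3 lay between 4.26% and 15.6% in WT and between 1.86% and 4.21% in IKO libraries. Plscr3, whose own levels overlapped between the genotypes, made up less of the family sum in IKO mice.

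The genes of the cluster were also compared among mice of the same genotype, as deviations of log2 CPM (prior count 2) from the mean of the genotype. The choice of genes did not use these deviations, but 1700057G04Rik passed the filter on low counts only through its IKO levels. Its 3 WT libraries with 0 counts all stood at a log2 CPM of -3.21, set by the prior count. Among the 14 libraries the deviations of 1700057G04Rik and Plscr2 ran together, with Pearson's r of 0.90 and Spearman's rho of 0.89. Pearson's r was 0.86 within the 7 WT and 0.95 within the 7 IKO libraries, and 0.88 over 12 libraries when WT 3 and IKO 7, the farthest from the median of 1700057G04Rik, were left out. In IKO mice both genes were at their highest CPM (with TMM factors) in IKO 4 and at their lowest in IKO 7. In WT mice both were at their highest in WT 4 and at 0 in WT 3. The points share library depth and the TMM factors, and in WT they rest on counts of 0 to 32.

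Plscr4 followed the same course, with r of 0.78 to 1700057G04Rik (rho 0.82) and 0.79 to Plscr2 (rho 0.80). With WT 3, WT 4 and IKO 4 left out together, r over 11 libraries was 0.90 for 1700057G04Rik and Plscr2, 0.70 for 1700057G04Rik and Plscr4 and 0.77 for Plscr2 and Plscr4. Plscr1, which lies in the same cluster and was also higher in IKO mice, had r of -0.06 to 1700057G04Rik, 0.14 to Plscr2 and 0.05 to Plscr4. These values pool unlike genotypes: within the 7 IKO libraries they were 0.24, 0.46 and 0.61, and within the 7 WT libraries -0.28, -0.09 and -0.25. Within genotypes, 1700057G04Rik and Plscr4 had 0.67 in IKO and 0.88 in WT libraries, so in IKO mice Plscr1 ran nearly as close to Plscr4 as 1700057G04Rik did. Plscr3 had r of 0.41 to 1700057G04Rik, 0.30 to Plscr2 and -0.55 to Plscr1. All 10 pairs of the 5 genes were computed, and these values are a description without a p.

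**Figure D3:**
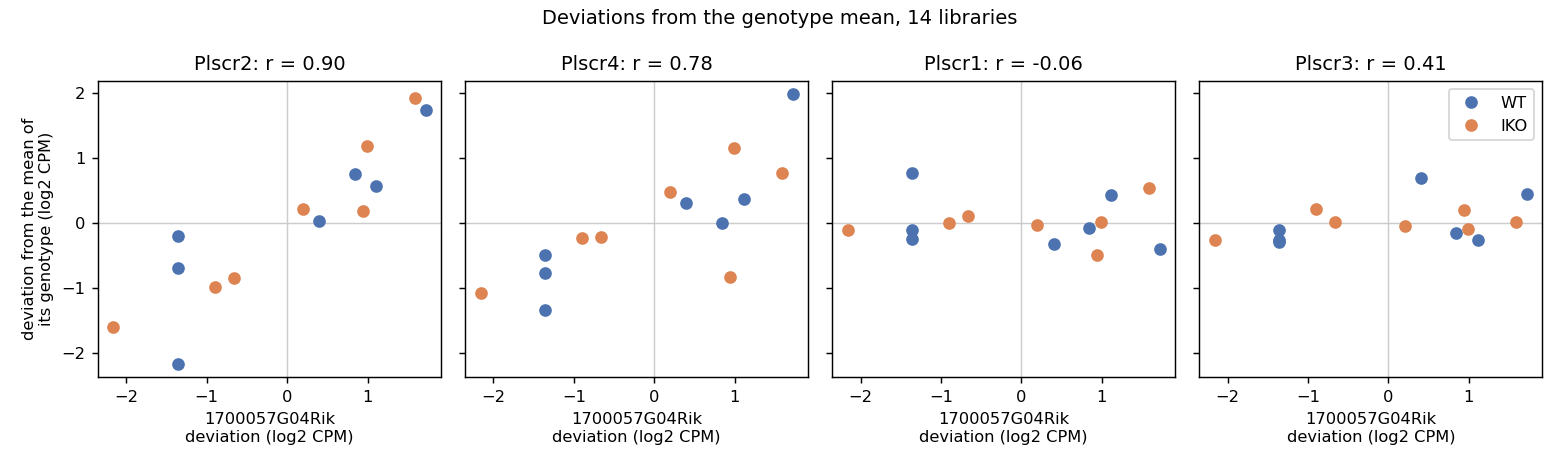
Deviation of log2 CPM from the mean of the genotype in 14 libraries (WT blue, IKO orange), with 1700057G04Rik on the horizontal axis and, from left to right, Plscr2, Plscr4, Plscr1 and Plscr3 on the vertical axis. The points of Plscr2 (r = 0.90) and Plscr4 (r = 0.78) rise with 1700057G04Rik, and those of Plscr1 (r = -0.06 over both genotypes) show no common slope.

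Between the genotypes the same pair did not keep its proportion. The libraries gave 44 counts of 1700057G04Rik to 83 of Plscr2 in WT mice, a ratio of 0.53, and 1072 to 160 in IKO mice, a ratio of 6.70. In the 7 IKO libraries taken singly the ratio stayed between 5.05 and 11.3. The WT ratio is pooled: WT 4 gave 17 counts of 1700057G04Rik and 32 of Plscr2, and both genes were at 0 in WT 3. The genes were chosen by this contrast, so the ratios are a description.

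Among 13845 other genes, Plscr2 had the highest r of deviations to 1700057G04Rik, followed by Zfp64, a zinc finger gene, with 0.88 and Gm21814 with 0.87. For Plscr2 the order was Gm21814 (0.91), Psmc3ip (0.91), a gene of meiotic recombination, and then 1700057G04Rik (0.90). For Plscr4 it was Dgke (0.87), a diacylglycerol kinase, Map3k12 (0.85) and Dbndd2 (0.83). For Plscr1 it was the antisense RNA Adap2os (0.86), the lipase gene Pnliprp2 (0.82) and Wdr48 (0.80), and for Plscr3 it was Rmnd5b (0.93), the kinase gene Mapk7 (0.93) and Tmem238 (0.92). These are the highest of 13845 values each over 14 libraries, and the value passed by 1% of genes was between 0.65 and 0.77. Of these genes outside the family, Pnliprp2 rose in IKO mice by 1.38 on the log2 scale (standard error 0.27, adjusted p = 0.00928, edgeR), and 7 of 7 IKO mice exceeded the WT median. Gm21814 fell by 1.90 on the log2 scale (adjusted p = 0.0337, edgeR), opposite to 1700057G04Rik, and this call was lost in 10 of 22 alternative fits.

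Markers of other cells were followed beside these deviations. The summed epithelial markers had r of -0.51 with 1700057G04Rik, -0.42 with Plscr2, -0.22 with Plscr4 and -0.11 with Plscr1. The smooth muscle sum had r of 0.44, 0.29, 0.38 and -0.37 with the same genes, and the share of mitochondrially encoded counts had 0.13, 0.07, 0.09 and 0.30. Over 9 marker lists and the mitochondrial share, r with the 5 genes lay between -0.51 and 0.48, the highest being stroma and endothelium with Plscr4. Without WT 3, WT 4 and IKO 4 it lay between -0.57 and 0.57, with -0.57 for epithelium with both 1700057G04Rik and Plscr2. The part of these cells in the r between 1700057G04Rik and Plscr2 was not tested. Of 58 genes tested in 10 marker lists (epithelium, ileum, smooth muscle, lymphocytes and plasma cells, macrophages, stroma and endothelium, tuft, goblet, Paneth and enteroendocrine cells), 1 passed the test between the genotypes, the macrophage marker Cd14 with a log2 fold change of 0.77 (adjusted p = 0.0328, edgeR). Among all genes 8.67% passed. Over the 6 macrophage markers, Cd14 included, the median log2 fold change was -0.32, and 2 were positive. At an unadjusted p under 0.05, 17 marker genes passed in edgeR. The share of all genes at an unadjusted p is not given here, so nothing is read from such counts, also in the lists below. After adjustment, DESeq2 called 8 marker genes (3 higher and 5 lower), beside 2444 of 17754 genes in all, and limma called 1. Ileal markers (Fabp6, Slc10a2 and Fgf15) ranged from 246 to 7970 CPM in sum.

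Few genes around the cluster on chromosome 9 were counted often enough to be tested. Within 500 kb of the 4 genes the count table lists 17 other genes, of which 1 passed the filter on low counts, the processed pseudogene Gm29397 at 484 kb, which differed by 0.69 on the log2 scale (edgeR adjusted p = 0.559, standard error 0.76) and by 0.26 without IKO 7. On the other side the nearest gene tested was Tbc1d2b, 1.98 Mb away, with -0.41 (standard error 0.25, adjusted p = 0.276, edgeR), or -0.24 without WT 4. Plod2, a collagen lysyl hydroxylase gene 49.8 kb beyond Plscr4, did not pass the filter, and is named after its values were seen. Its means were 3.31 CPM in WT and 0.565 CPM in IKO libraries, and 320 of its 559 counts came from WT 4, the library with the most smooth muscle and stroma markers, whose part in the level was not tested. The noncoding RNA gene Gm29139, between Plscr2 and 1700057G04Rik on the opposite strand, had 0 counts in all libraries, as did the pseudogene Gm15493 inside 1700057G04Rik. Mir6386, inside Plscr1 on the opposite strand, had 78 counts, which cannot be told apart from Plscr1 reads if the counting ignored strand.

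**Figure D4:**
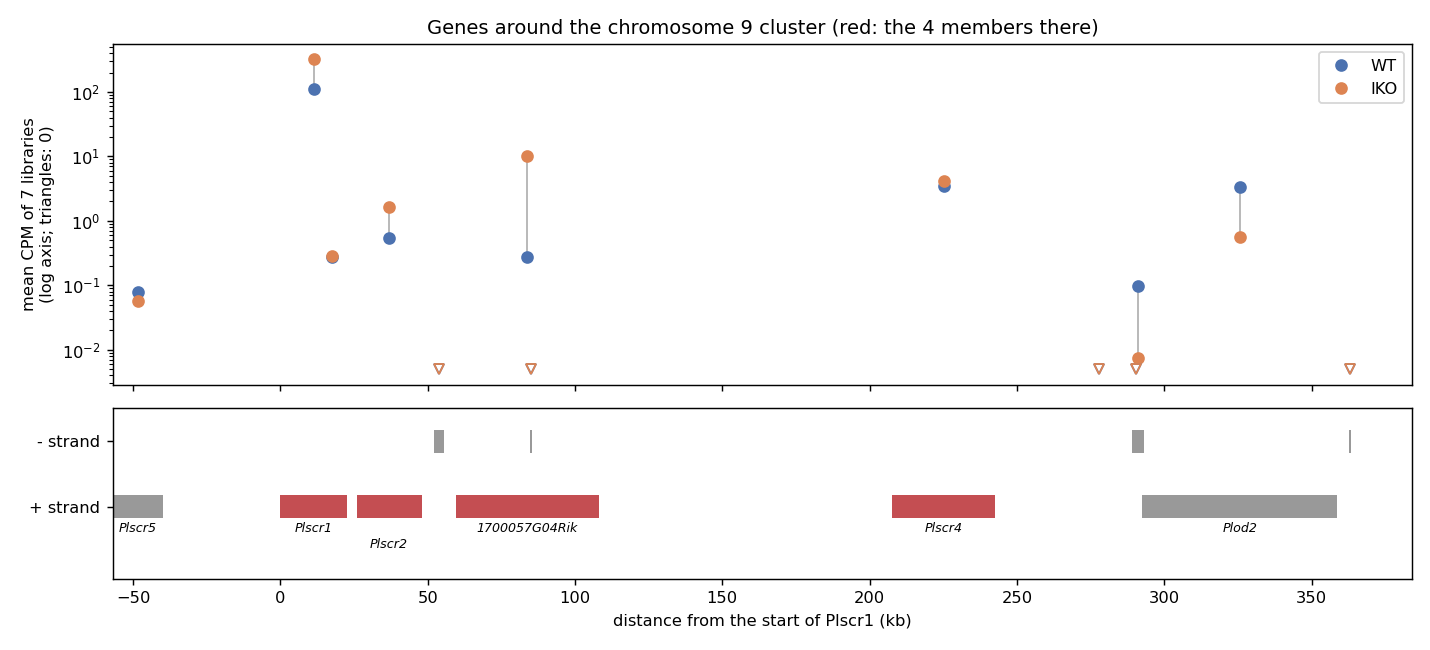
Upper panel: mean CPM of 7 WT (blue) and 7 IKO (orange) libraries (log axis; open triangles, 0 counts in every library) for genes around the cluster, at their distance in kb from the start of Plscr1. Lower panel: gene spans on each strand, with the 4 cluster genes in red. Plscr1, Plscr2 and 1700057G04Rik, which follow each other, have higher means in IKO mice, though the Plscr2 groups overlap. The Plscr4 means nearly coincide with WT 4 included, and without WT 4 its log2 fold change was 0.84. CPM are not per length and are compared here between genotypes only.

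Plscr3 lay in a dense region of chromosome 11, 7.39 Mb from Ncor1. Over all genes, 607 of the 13846 tested rose in IKO mice (4.38%). Within 500 kb of Plscr3, 43 of 84 other genes were tested, and 4 of the 43 rose in IKO mice. They were Dnah2, an axonemal dynein (log2 fold change 1.39, adjusted p = 0.0421, edgeR), Acadvl, which opens the mitochondrial oxidation of very long-chain fatty acids (1.21, adjusted p = 0.0368, edgeR), the monocarboxylate transporter Slc16a13 (1.02, adjusted p = 0.0396, edgeR) and the autophagy gene Gabarap (0.74, adjusted p = 0.0168, edgeR). The calls of Dnah2, Acadvl and Slc16a13 were lost in 14 of 23, 12 of 25 and 17 of 25 alternative fits. Next to Plscr3 itself, Tmem256 at 6.76 kb differed by 0.73 on the log2 scale (standard error 0.38, adjusted p = 0.197, edgeR) and the overlapping Tnk1 by -0.27 (standard error 0.27, adjusted p = 0.511, edgeR). Without IKO 2, Tmem256 was at 0.29, and without WT 2, Tnk1 was at -0.03.

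Other genes linked to the movement of lipids across membranes were compared between the genotypes to set the family beside them. Of 74 genes in 6 lists, 58 were tested and 4 passed an adjusted p under 0.05 (6.90%, beside 8.67% of all genes), 1 higher and 3 lower in IKO mice.

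One list took genes of other families that include scramblases (the anoctamins, the Xkr proteins, Tmem41b, Vmp1 and the Atg9 proteins), together with Plscr5. Of its 21 genes, 13 were tested and 0 passed in edgeR, DESeq2 or limma. At an unadjusted p under 0.05 in edgeR, 4 passed. The median log2 fold change was -0.03, beside -0.09 for all genes, and the farthest was Ano1, a calcium-activated chloride channel, with -1.14 (standard error 0.50, adjusted p = 0.139, edgeR). Without WT 4 it was at -0.41.

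Of the flippases, ATPases that carry lipids inward, listed with their subunits Tmem30a and Tmem30b, 14 of 17 were tested with a median of -0.42. Of the 14, 3 had a positive fold change. EdgeR called 1 lower, DESeq2 called 3 lower and limma called 0. Atp10d, a P4-type ATPase, fell by 1.69 on the log2 scale (adjusted p = 0.0276, edgeR), from 2.29 ± 1.46 CPM (SD, n = 7) to 0.702 ± 0.306 CPM (SD, n = 7), and 0 of 7 IKO mice were above the WT median. Of the floppases, the ABC transporters that carry lipids outward, 8 of 10 were tested with a median of -0.40. Abca2, a transporter of lysosomal membranes, fell by 1.20 (standard error 0.26, adjusted p = 0.0149, edgeR), and Abcc1, a drug and leukotriene exporter, fell by 1.24 (standard error 0.36, adjusted p = 0.0446, edgeR). The Abca2 groups did not overlap, with 9.89 ± 3.98 CPM in WT and 4.29 ± 1.18 CPM in IKO mice (SD, n = 7 each). Abca1, the cholesterol and phospholipid exporter, which is named after its values were seen, differed most in the other direction, by 1.39 (standard error 0.49, adjusted p = 0.0811, edgeR), with 71.7 ± 35.2 CPM in WT and 188 ± 126 CPM in IKO mice (SD, n = 7 each) and 6 of 7 IKO mice over the WT median. DESeq2 called 1 floppase higher and 2 lower. Without WT 3, WT 4 and IKO 4, Abca2 was at -0.79 and Abcc1 at -0.76. The calls of Atp10d and Abcc1 were lost in 7 of 22 and 14 of 23 alternative fits.

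The 3 genes of phosphatidylserine synthesis and decarboxylation had a median of -0.14, and 0 passed in edgeR, DESeq2 or limma, also at an unadjusted p in edgeR. Pisd, the decarboxylase, was the farthest with -0.47 (standard error 0.24, adjusted p = 0.200, edgeR). Of the genes by which phagocytes recognise phosphatidylserine, 10 of 13 were tested and 0 passed in edgeR or limma, while 1 passed in DESeq2. At an unadjusted p, 3 passed in edgeR, and the median was -0.76. The farthest was Tyro3, a receptor tyrosine kinase that binds phosphatidylserine through Gas6 and protein S, with -1.24 (standard error 0.42, adjusted p = 0.0725, edgeR), or -0.72 without WT 4. Non-epithelial markers also had lower medians in IKO mice, -0.90 over 10 lymphocyte and plasma cell genes, -1.39 over 10 stroma and endothelium genes and -3.10 over 7 smooth muscle genes. Their summed levels overlapped between the genotypes (166 to 862 and 160 to 479 CPM, 16.3 to 375 and 23.9 to 56.6 CPM, and 5.44 to 11200 and 4.82 to 826 CPM in WT and IKO libraries). The highest stroma and smooth muscle sums were those of WT 4, and medians without it are not given here. Macrophage markers had a median of -0.32 over 6 genes, 2 of them with a positive fold change. The part of these cells in the medians of this list, the flippases and the floppases was not tested.

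All 10 genes of cardiolipin handling, the lipid linked to Plscr3, were tested, with a median of 0.13. Hadha rose by 1.12 on the log2 scale (standard error 0.25, adjusted p = 0.0154, edgeR), from 272 ± 105 CPM to 591 ± 105 CPM (SD, n = 7 each), and its groups did not overlap. Hadha is the alpha subunit of the mitochondrial trifunctional protein of fatty acid oxidation, and remodels cardiolipin as a further activity.

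Interferon-stimulated genes were listed because Plscr1 is one of them. All 38 were tested, and 3 passed an adjusted p under 0.05 in edgeR, 2 higher and 1 lower (7.89%, beside 8.67% of all genes). The median log2 fold change was 0.17, beside -0.09 for all genes, and 27 of the 38 were positive. The share of all genes with a positive fold change is not given here. Oasl1, which restrains the translation of Irf7, rose by 1.20 (standard error 0.24, adjusted p = 0.0107, edgeR), from 63.3 ± 24.2 CPM to 145 ± 34.4 CPM (SD, n = 7 each). Isg15, a ubiquitin-like modifier, rose by 1.06 (standard error 0.32, adjusted p = 0.0495, edgeR), and 5 of 7 IKO mice exceeded the WT median. Samd9l fell by 1.78 (standard error 0.33, adjusted p = 0.00728, edgeR), from 73.9 ± 19.1 CPM to 21.5 ± 13.5 CPM (SD, n = 7 each). The call of Samd9l was lost in 0 of 25 alternative fits and that of Isg15 in 16 of 25. Within genotypes, the summed level of the list had r of 0.35 with the deviations of Plscr1, and 0.11 without WT 3, WT 4 and IKO 4.

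**Figure D5:**
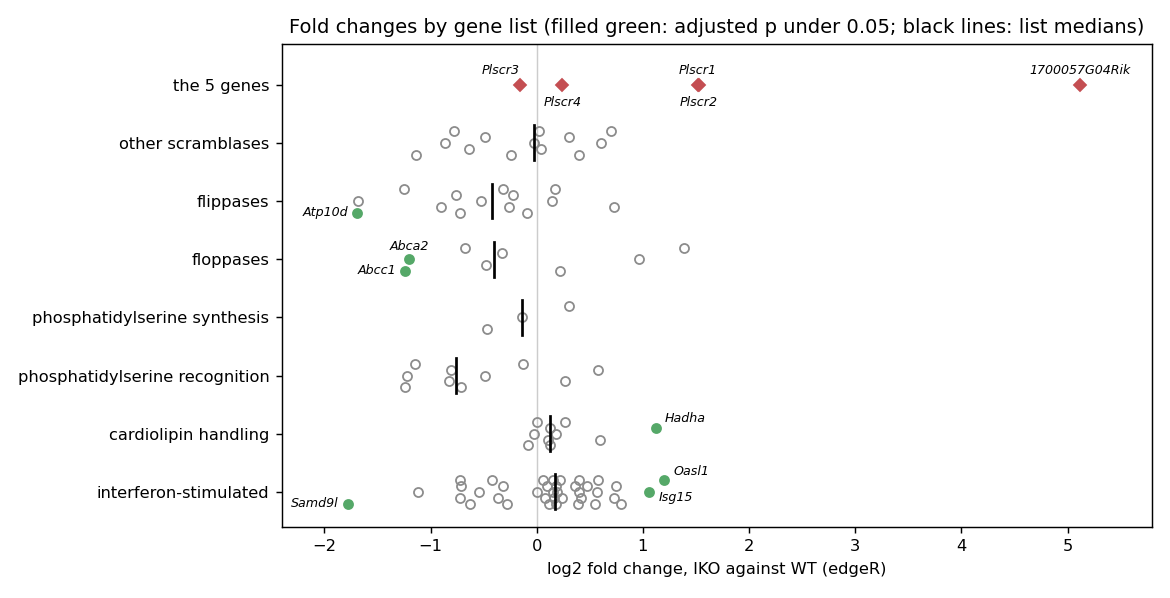
Fold changes (log2, IKO against WT, edgeR) of the 5 genes (red diamonds) and of the tested genes of 7 lists (open grey, or filled green where the adjusted p was under 0.05). Black lines are list medians, which run from -0.76 for phosphatidylserine recognition to 0.17 for interferon-stimulated genes, and 1700057G04Rik stands at 5.12.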

How the data were processed

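Ileum mucosa RNA of 7 WT and 7 IKO mice was analyzed, with genotypes taken from the sample titles (columns named KO were read as IKO). The deposited counts are whole reads per gene made by the authors, whose submitted processing notes name HISAT2 2.0.5, featureCounts 1.5.0-p3, DESeq2 1.16.1 and mm10. Strand and multimapping settings are not given in the sources used here. The deposited FPKM equal the authors' counts per kilobase divided by the DESeq2 size factor of the library times 18, so they follow size factors and not library totals. Start and end in the count table were the same in GENCODE M21 for 53585 of 54495 matched genes, all 5 members included.

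Genes were filtered with filterByExpr, scaled with TMM and fitted with edgeR 4.0.16 (glmQLFit and glmQLFTest, under R 4.3.3), the model holding genotype alone, and p-values were adjusted by Benjamini-Hochberg over 13846 genes. The standard error is the log2 fold change divided by the square root of F. For a count of 0, a floor of 3 counts is used. Depth was 14749669 to 21557468 counts per library. The fit was tested on simulated data. The 5 genes, the gene lists and the tests were chosen with earlier results of these data known. Named are the 5 genes and Ncor1; of each list and of the genes within 500 kb, up to 5 that passed 0.05, by size of fold change (for a list of lipid movement with none, the farthest gene); the nearest tested neighbours; and the 3 genes with the highest r of deviations per member. Coding sequences were aligned with MAFFT 7.526.

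Same-numbered WT and IKO libraries did not deviate together: r of their deviations was -0.31 to 0.23, with 1 of 7 over 0.1, so the numbers were not taken as pairs. Alternatives were DESeq2 1.42.0, RLE factors, removal of mitochondrially encoded genes, omission of the filter, a minimum of 10 counts in all 14 libraries, limma 3.58.1 on log2 of FPKM with pseudocounts of 1 and 0.1 (FPKM over 0.5 in at least 7 libraries) and without that filter, a replicate block, each library left out, WT 3, WT 4 and IKO 4 left out together and, chosen after seeing the data, no TMM factor and a prior count of 0.5.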

Additional observations from a re-analysis of the deposited data

Results flagged for a closer look

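Neither of the 2 libraries that stood far from their group did so through the scramblase genes. The share of mitochondrially encoded counts in IKO 4 (50.3%) lay apart from the other 6 IKO libraries, with a gap to the nearest of 0.791 of the whole range on the log2 scale. The summed smooth muscle markers of WT 4 (11200 CPM) lay apart from the other 6 WT libraries in the same way, with a gap of 0.683 of the range. Both gaps pass Dixon's critical value for 7 libraries, which chance passes in about 1 in 20 groups, or 0.8 of the 16 groups examined here over 8 measures. IKO 4 was also the library with the highest CPM of Plscr1 (456), Plscr2 (4.59) and 1700057G04Rik (23.2) with its TMM factor of 0.579. Scaled by total counts, IKO 4 had 264 CPM of Plscr1 against 313 in IKO 1, and 13.4 CPM of 1700057G04Rik against 14.7 in IKO 6. WT 4 was the WT library with the highest CPM of Plscr2 (1.52), 1700057G04Rik (0.807) and Plscr4 (10.6). None of these levels passed Dixon's value, and the part of the mitochondrial share and of muscle tissue in them was not tested.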

How the results depend on the processing

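The log2 fold change of Plscr1 ran from 1.42 to 1.68 when each library was left out in turn, that of 1700057G04Rik from 4.81 to 5.60, that of Plscr2 from 1.04 to 2.03, that of Plscr4 from -0.01 to 0.84 and that of Plscr3 from -0.22 to -0.02. Without TMM factors, Plscr1 was at 1.07, Plscr2 at 0.95, Plscr3 at -0.54 and Plscr4 at -0.22, the opposite sign to its 0.24. On log2(FPKM + 1), a scale that understates low genes, 1700057G04Rik was at 2.19 and, without the filter, Plscr2 at 0.33. With at least 10 counts in every sample, Plscr2 and 1700057G04Rik gave no value. The r of 1700057G04Rik and Plscr2 was 0.83 with a prior count of 0.5, and 0.88 to 0.94 with each library left out.

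Counts of called genes moved more. All genes called went from 1200 to 2444 with DESeq2, 508 without the filter, 614 in limma without the filter, 3380 without TMM factors, 433 without WT 3, WT 4 and IKO 4, and 515 to 1371 with 1 library left out; the count moved by over 1.5 times without WT 4 (746), WT 7 (600), IKO 1 (526), IKO 2 (728), IKO 5 (515) or IKO 7 (789). In limma on log2(FPKM + 1), 708 were higher and 328 lower. The lipid movement genes called went from 4 to 8 with DESeq2, 2 without the filter, 15 without TMM factors, 2 in limma with either pseudocount, 1 in limma without the filter, 2 without WT 3, WT 4 and IKO 4, and 2 (without WT 7, IKO 2 or IKO 5) to 7 (without WT 2) with 1 library left out. The neighbours called went from 4 to 11, 1, 8, 2, 1 and 1 in the same order of settings, and to 1 (without WT 3, WT 4, WT 7, IKO 1, IKO 5 or IKO 7) to 5 with 1 library left out. The interferon-stimulated genes called went from 3 to 6 without TMM factors, and 2 to 3 with 1 library left out. A replicate block, whose numbers did not pair the mice, called 362 genes in all, 1 of lipid movement, 1 interferon-stimulated gene and 1 neighbour. The cause of these moves was not tested. Depth limits Plscr2 and, in WT mice, 1700057G04Rik, whose libraries held 0 to 47 and 0 to 17 counts.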
